A study of Mus musculus with 6 samples.

Results

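The genes examined here were 10 genes of antigen presentation on MHC class II: H2-Aa, H2-Ab1, H2-Eb1, H2-DMa, H2-DMb1, H2-DMb2, H2-Oa, H2-Ob, Cd74 and Ciita. They were chosen by name from the 21864 protein-coding genes of the mouse annotation (GENCODE M21, build GRCm38), and 10 of 10 were found. Their chromatin was read from Mint-ChIP, a multiplexed chromatin immunoprecipitation for small cell numbers, in B cells sorted from the germinal centers (GCs) of wild-type mouse spleens. The mice had received sheep red blood cells 8 days earlier, and 50000 sorted cells went into each library, with 3 libraries for H3K4me3 and 3 for H3K4me1. The labels call the cells centrocytes, the light zone fraction of the GC, the methods say GC B cells, and the labels give neither strain nor age. The protocol text in the labels names an H3K27ac antibody, while the titles, the antibody labels (ab8580 for H3K4me3 and ab8895 for H3K4me1) and the methods name the marks used here. There was no mutant, untreated or input library among those analysed, so the only comparison was between the marks.

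In GC B cells, class II molecules carry antigen taken up by the B cell receptor to the surface, where T follicular helper cells read it. H2-Aa pairs with H2-Ab1 to form I-A, and H2-Eb1 encodes the beta chain of I-E. Cd74, the invariant chain, fills the groove until the H2-DM heterodimer (H2-DMa with H2-DMb1 or H2-DMb2) exchanges its remnant for peptide, and H2-DO (H2-Oa with H2-Ob) restrains H2-DM. Ciita is the coactivator that switches the family on. It does not bind DNA itself but docks on factors seated on the X and Y boxes of class II promoters. H3K4me3 typically marks active promoters and H3K4me1 typically marks enhancers and the flanks of promoters.

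Promoter sequences are shown first because the X and Y boxes are the feature this gene family is known to share. RefSeq promoter windows (GRCm38.p6, from 250 bases before to 50 after each start) were matched for 7 of 10 genes, 8 windows in all. H2-Ab1, Cd74 and Ciita had no window. In the stretches below, written 5′ to 3′ along each gene and ending at the start site where 120 bases are shown, capitals mark matches to the letters GNNAC followed directly by NGATG (X1 box core), TGACG (X2 box core) and CCAAT (Y box core, which reads ATTGG on the other strand), searched on both strands.
H2-Aa, chr17:34287823-34287942, minus strand: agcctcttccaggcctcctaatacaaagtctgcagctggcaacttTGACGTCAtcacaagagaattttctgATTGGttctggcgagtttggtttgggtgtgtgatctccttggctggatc
H2-Eb1, chr17:34305748-34305867, plus strand: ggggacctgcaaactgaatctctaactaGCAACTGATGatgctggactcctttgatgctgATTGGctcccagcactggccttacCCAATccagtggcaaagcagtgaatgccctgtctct
H2-Ob, chr17:34238784-34238903, plus strand: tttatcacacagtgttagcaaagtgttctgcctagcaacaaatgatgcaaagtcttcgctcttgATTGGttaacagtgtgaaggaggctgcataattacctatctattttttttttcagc
H2-Oa, chr17:34092221-34092340, plus strand: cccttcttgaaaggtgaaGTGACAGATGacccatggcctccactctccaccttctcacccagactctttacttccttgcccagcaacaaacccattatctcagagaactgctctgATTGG
H2-DMb2, chr17:34145117-34145236, plus strand: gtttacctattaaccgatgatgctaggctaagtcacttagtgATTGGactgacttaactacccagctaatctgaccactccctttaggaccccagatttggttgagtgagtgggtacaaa
H2-DMb1, chr17:34153087-34153116, plus strand: ggtttacctaGTAACTGATGatgctaggct

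The Y box letters were found in 7 of 8 member windows, against 37.4% of all 32851 RefSeq promoter windows. The X1 letters were found in 3 of 8, those of H2-Eb1, H2-DMb1 and H2-Oa, against 2.97% of all windows, and both motifs together in the same 3, against 1.21%. X1 preceded the reverse Y box by 32 bases, start to start, in H2-Eb1 and by 33 in H2-DMb1, whereas in H2-Oa the distance was 97 bases. The H2-DMb1 matches lay 94 and 61 bases before the RefSeq start. Both were downstream of the annotated start used for its peaks below (34153072). The X2 letters were found in 1 of 8 windows, that of H2-Aa, where the 2 strands' matches overlap, against 20.8% of all windows. The upstream H2-DMa window (34122582-34122881) held none of the 3 motifs. The other H2-DMa window (34125268-34125567) held a Y match but contains none of the TSSs used for its peaks below. The downstream H2-DMa TSSs described below lay in neither window. H2-DMb1 and H2-DMb2 are near copies of each other: the 30 bases of H2-DMb1 shown above lay on H2-DMb2 (chr17:34145116-34145145) with 28 identical bases and the differences G11T and T16C, counted from 1 at the 5′ end of the H2-DMb1 stretch. G11T falls on the first fixed letter of X1 and T16C on a free one, and H2-DMb2 had no match. These matches describe letters and not sites in use.

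Each H3K4me3 library listed 41936 to 46707 peaks and each H3K4me1 library 11922 to 24136. H3K4me3 peaks covered 49.4 to 60.2 Mb and H3K4me1 peaks 3.53 to 7.91 Mb, the most in replicate 1 for both marks. The H3K4me3 lists have a broad layout and go down to a −log10 q-value of 1.02 to 1.14, and the H3K4me1 lists a narrow layout and a lowest value of 1.31 to 1.32, so mark and calling mode cannot be told apart. The labels do not say whether the 3 libraries of a mark came from separate animals, and their spread may be technical. Read totals were not used here. In a bulk library, a peak made by some of the cells cannot be told apart from a weaker peak in all of them. As a check for B cells against other cell types, a list of GC B cell markers was used (Cd79a, Cd79b, Bcl6, Fas, Pax5 and Mef2b). Of these, 6 of 6 had an H3K4me3 peak over a transcription start site (TSS) in 3 of 3 libraries. No gene among 8 dendritic cell and macrophage markers, cells that also carry class II, or 4 T cell markers did so. Other B cell stages were not compared, so this check cannot separate GC B cells from other B cells. The median H3K4me3 coverage within 5 kb of the TSSs was 8423 bp in the GC B cell list, 417 bp (range 0 to 1531 bp) in the dendritic cell and macrophage list and 0 bp in the T cell list. A peak within 5 kb, the wider criterion, was present in 3 of 3 libraries for 3 of the 8 dendritic cell and macrophage markers (Cd14, Zbtb46 and Xcr1), and Lyz2 was the only one of the 8 with 0 bp in each library. The part of such cells in the class II peaks was not tested.

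All 10 class II genes carried H3K4me3 at their promoters. A peak within 5 kb of a protein-coding TSS was present in 3 of 3 libraries for 10 of 10 genes, against 56.2% of all protein-coding genes. In 9 of 10, a peak covered a TSS itself in 3 of 3 libraries, against 38.4% of all genes. The exception was H2-DMb1, whose TSS was covered in 2 of 3. H3K4me1 was far sparser near these TSSs. An H3K4me1 peak within 5 kb was present in 3 of 3 libraries for 5 of 10 genes (H2-Ab1, H2-Eb1, H2-DMa, H2-Oa and Ciita), against 6.17% of all genes, and in 2 or more libraries for 9 of 10, against 17.2%. Cd74 had none in any library. No H3K4me1 peak covered a protein-coding TSS of any of the 10 genes, and 2.36% of all genes had such a peak in any library. Both marks were present within 5 kb in all 6 libraries for 5 of 10 genes, against 6.16% of all genes.

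**Figure D1:**
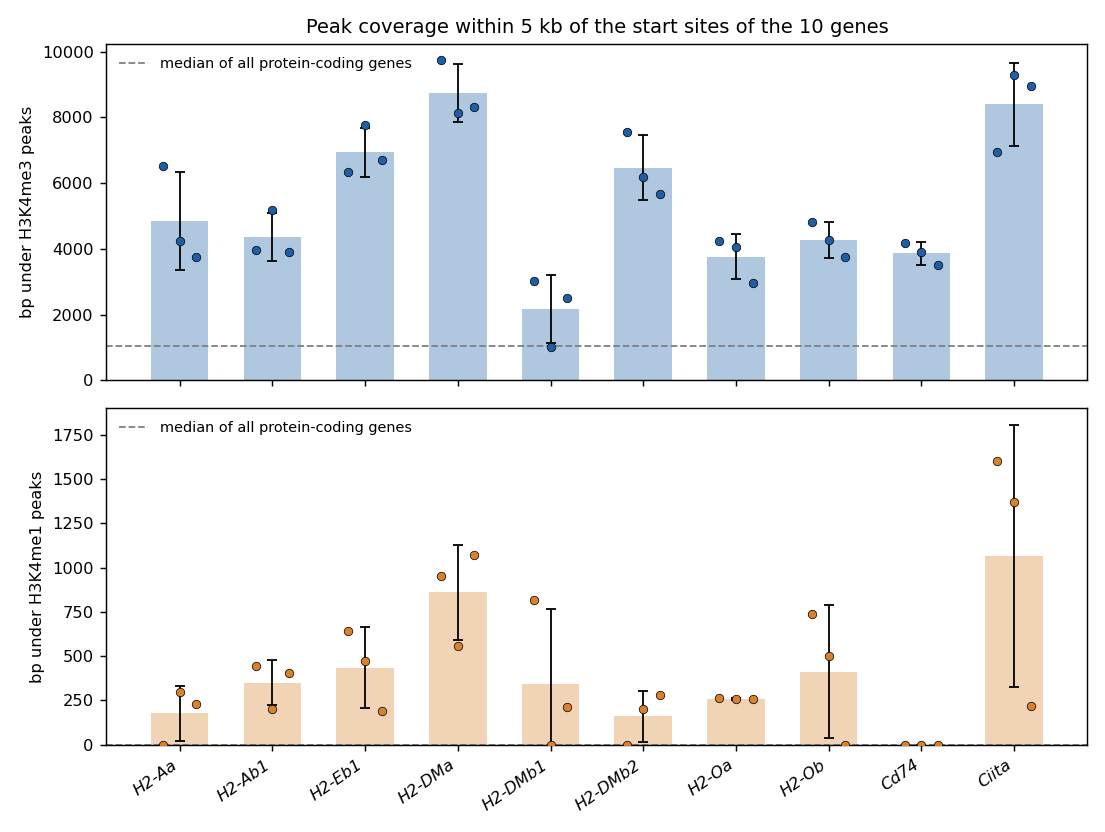
Base pairs under H3K4me3 peaks (top) and H3K4me1 peaks (bottom) within 5 kb of the protein-coding TSSs of each gene (y axes, bp, on different scales), with points for the 3 libraries, bars for their mean and error bars for the SD. H3K4me3 lay above the median of all genes (dashed, 1032 bp) in every library of every gene except replicate 2 of H2-DMb1 (1020 bp), and H3K4me1 reached 0 bp in at least 1 library of H2-Aa, H2-DMb1, H2-DMb2, H2-Ob and Cd74 (the dashed line lies at 0 bp).

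For every one of the 10 genes, all 3 H3K4me3 libraries covered more of the promoter window than any H3K4me1 library, which also held for 55.8% of all genes. The exact two-sided permutation p was 0.1 for each gene, the smallest that 3 libraries against 3 can give, and 0.179 after Benjamini-Hochberg adjustment over 21864 genes, so no difference could pass a threshold of 0.05. The median over the 10 genes of mean H3K4me3 coverage was 4596 bp, against 1032 bp over all genes and 1889 bp over the 14325 genes with an H3K4me3 promoter peak in any library. For H3K4me1 the medians were 346 bp and 0 bp. The widest H3K4me3 promoter peak reached 3 kb in 3 of 3 libraries in 5 of 10 genes (H2-Eb1, H2-DMa, H2-DMb2, Cd74 and Ciita), against 5.49% of all genes. In replicate 2, the H2-DMa peaks of that width (5200 and 3892 bp) covered none of its TSSs. Genes with scattered TSSs have longer windows (20028 bp for H2-DMa and 19725 bp for Ciita, near 10 kb for most others). The 10 genes are therefore ranked below by the share of the window under peaks. The median share over the 10 genes was 42.9% for H3K4me3, against 9.05% over all genes, and 3.46% for H3K4me1, against 0%.

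H2-Eb1 had the highest H3K4me3 share, 69.3% ± 7.53 of its window (SD, n = 3), the 99.6th percentile of all genes. H2-DMb2 followed with 54.1% ± 8.19, H2-Aa with 48.3% ± 14.8 and H2-DMa with 43.6% ± 4.4. H2-Ab1 (43.3% ± 7.28), H2-Ob (42.6% ± 5.37) and Ciita (42.6% ± 6.44) lay close together. Cd74 (38.6% ± 3.38) and H2-Oa (37.6% ± 6.91) came next, and H2-DMb1 was lowest with 21.8% ± 10.4, the 77.6th percentile. Neighbours in this order overlapped in their library values except at the top, where H2-Eb1 ranged from 63.3% to 77.8% and H2-DMb2 from 47.3% to 63.2%, and no test was run between genes. The other 8 genes lay between the 93.8th and the 98.3rd percentile.

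**Figure D2:**
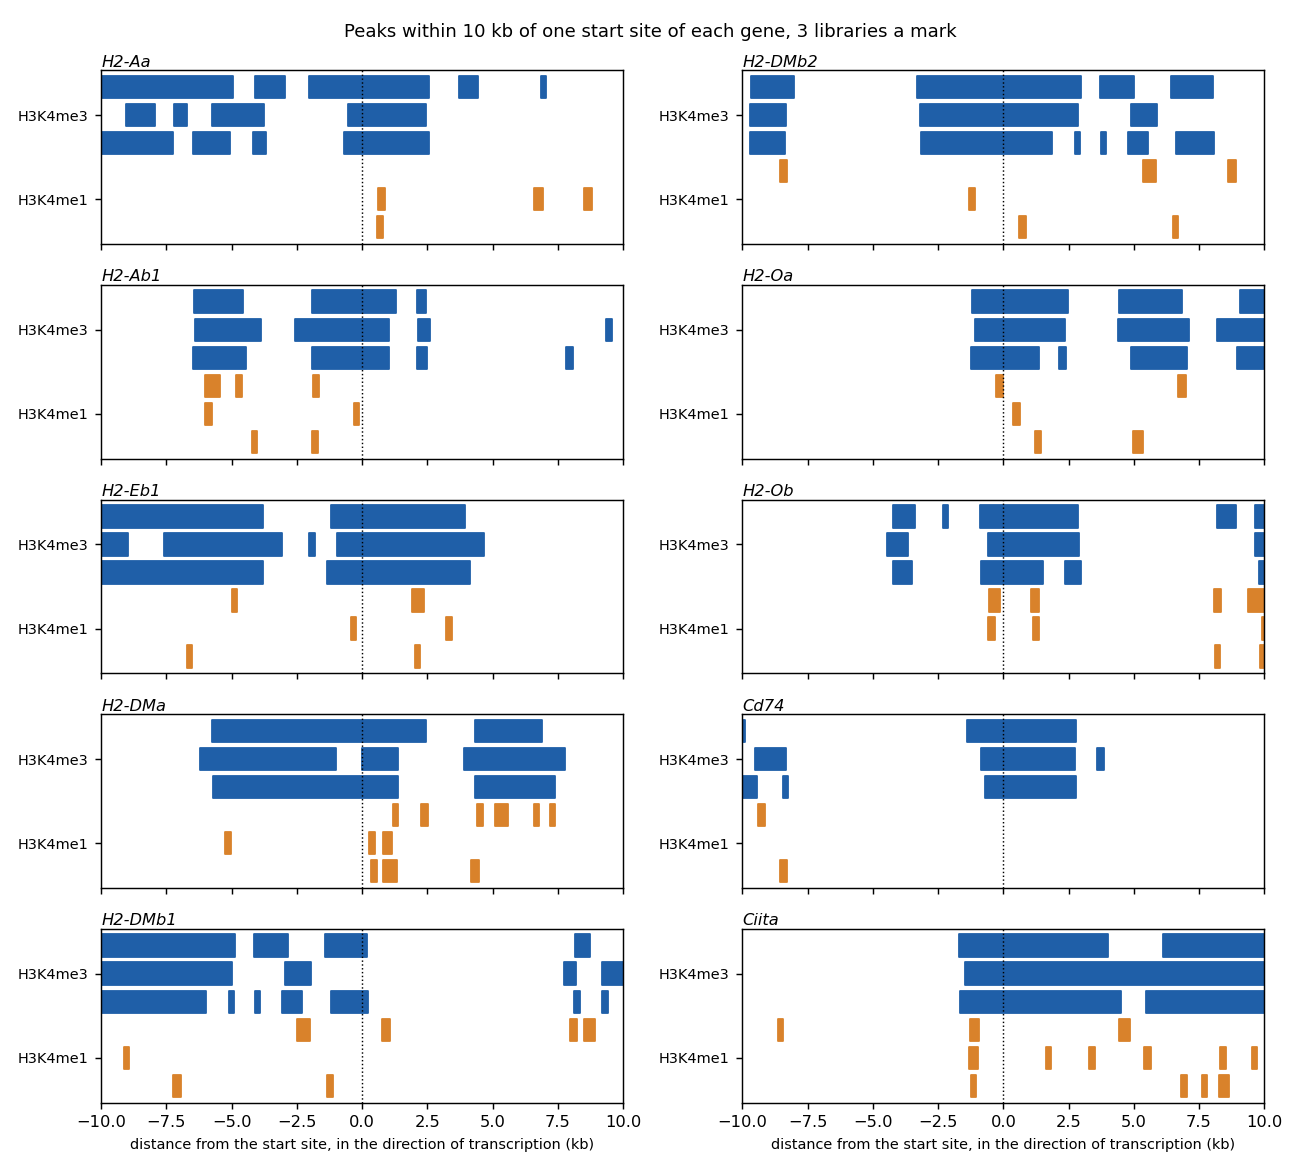
Peaks of the 3 H3K4me3 libraries (blue, replicates 1 to 3 from top to bottom) and the 3 H3K4me1 libraries (orange, likewise) within 10 kb of an annotated TSS of each gene (dotted line, x axis in kb in the direction of transcription). Blue bars cross the TSS drawn in every library except replicate 2 of H2-DMb1, orange bars never cross it, and the Cd74 panel has no orange bar within 5 kb. For Ciita the TSS drawn is the one at 10488279, and its upstream TSSs lie in no peak.

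Among the classical chains, H2-Aa (chr17:34282744-34287823, minus strand, 2 protein-coding TSSs) carried an H3K4me3 peak over both TSSs of 4607, 2999 and 3239 bp in replicates 1 to 3, with fold enrichments over local background of 6.68, 7.25 and 5.89. The replicate 1 peak was the widest because it ran further upstream. Promoter coverage was 6531, 4236 and 3757 bp for H3K4me3 and 0, 297 and 232 bp for H3K4me1. The H3K4me1 peaks of replicates 2 and 3 overlapped each other in an intron of the gene, 564 and 535 bp from the TSS at their nearest edges.
H2-Ab1 (chr17:34257689-34269419, plus strand), the I-A beta chain, had a TSS peak of 3210, 3619 and 2944 bp with fold enrichments of 4.96, 5.42 and 5.21. These were lower than at the TSS peaks of H2-Aa and H2-Eb1 in every library. A separate H3K4me3 region (34256732-34259337) lay upstream in 3 of 3 libraries, its edge 3872 bp from the first protein-coding TSS, and it contains the start of a noncoding H2-Ab1 transcript at 34257689, which an H3K4me1 peak of replicate 1 also covered. H3K4me1 coverage at H2-Ab1 was 443, 204 and 402 bp, and peaks of replicates 1 and 3 shared a position (34261294-34261541) 1668 bp upstream of the TSS, where fold enrichments were 8.42 and 5.12.
H2-Eb1 (chr17:34305867-34316674, plus strand) had the widest TSS peak of the classical chains, 5144, 5626 and 5482 bp, with fold enrichments of 7.29, 6.71 and 6.29. Its H3K4me1 coverage was 640, 473 and 189 bp, and the peaks nearest to the TSS lay 1912, 225 and 2024 bp away. Those of replicates 1 and 3 overlapped, whereas that of replicate 2 lay on the other side of the TSS.
Between the H2-Aa and H2-Eb1 genes, H3K4me3 peaks of 3 of 3 libraries merged into a region (34290797-34302801), with highest fold enrichments of 4.94, 4.75 and 5.22. In each library the region was split into separate peaks with gaps between them. It overlaps the annotated gene Gm20513, and peaks of this interval were assigned once, to the nearer class II TSS.

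The H2-DM genes edit the peptide repertoire. H2-DMa (chr17:34119541-34139101, plus strand) has an upstream TSS at 34122832 and TSSs 12.8 kb further downstream at 34135628 and 34135654. The upstream TSS lies 232 bp from a TSS of Brd2, a bromodomain gene read in the other direction, and H3K4me3 here spanned both genes in 1 peak of 8203 bp in replicate 1 and 7067 bp in replicate 3, and in 2 peaks of 5200 and 1386 bp in replicate 2. Its enrichment at this end cannot be assigned to H2-DMa alone. The downstream TSSs sat in a narrower peak of 1631, 1386 and 1306 bp, whose fold enrichments of 10.7, 10.1 and 11.4 were the highest at any promoter of the 10 genes in every library. H2-DMa was the only one of the 10 genes with an H3K4me1 promoter peak of −log10 q of at least 5 in each of the 3 libraries, against 0.503% of all genes. H3K4me1 was called in 3 of 3 libraries in an intron 808 bp downstream of the upstream TSS (34123640-34124222, fold enrichments 6.32, 5.25 and 7.52), where the peak of replicate 3 overlapped those of replicates 1 and 2, which did not overlap each other.
H2-DMb2 (chr17:34143307-34151555, plus strand) had a peak over all 3 of its TSSs of 6267, 6055 and 5021 bp with fold enrichments of 7.8, 5.76 and 6.94. Its H3K4me1 coverage was 0, 202 and 280 bp, in peaks that did not overlap.
H2-DMb1 (chr17:34153072-34160230, plus strand) had a TSS peak of 1603 bp in replicate 1 and 1444 bp in replicate 3, with fold enrichments of 4.11 and 4.06, and none in replicate 2, where the nearest peak lay 1954 bp away. Its promoter coverage was 3022, 1020 and 2499 bp, below that of H2-DMb2 in every library (7562, 6200 and 5661 bp). As a share of the window, this was 30.2, 10.2 and 25% against 63.2, 51.8 and 47.3%. Reads from near-identical copies can be lost or shifted by alignment: 10.4% of the 50-base words within 2 kb of the H2-DMb1 TSS and 10.1% of those around the TSS of H2-DMb2 at 34145236 recurred in the chromosome 17 region, against 0% around the H2-Aa and H2-Ab1 TSSs. The part of this repetition in the gap between the paralogs was not tested.

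H2-Oa and H2-Ob form H2-DO. H2-Oa (chr17:34092340-34095234, plus strand) had a TSS peak of 3682, 3459 and 2626 bp with fold enrichments of 7.41, 6.68 and 6.53. It was the only gene with an H3K4me1 peak nearly touching its TSS, 6 bp away in replicate 1, and that peak had the highest H3K4me1 fold enrichment near any of the 10 promoters (10.3). The peaks of replicates 2 and 3 lay elsewhere, 384 and 1229 bp downstream, so an almost equal coverage of 266, 257 and 257 bp came from different places.
H2-Ob (chr17:34238903-34254414, plus strand) had a TSS peak of 3774, 3475 and 2393 bp with fold enrichments of 8.66, 6.87 and 6. H3K4me1 peaks stood on both sides of the TSS at matching places in replicates 1 and 2 (34238325-34238788 and 34239964-34240282), and replicate 3 had none within 5 kb. The H3K4me1 coverage was 738, 499 and 0 bp.

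H2-Ob also held the strongest recurrent H3K4me1 in a gene body. An intronic region 10.8 kb downstream of its TSSs (34249781-34250363) was called in 3 of 3 libraries with fold enrichments of 7.72, 9.75 and 7.26, and a neighbouring region that overlaps an exon (34248280-34249197) with 7.02, 3.43 and 3.64. An H3K4me3 region merged across libraries (34248535-34250352) overlapped both, with highest fold enrichments of 7.95, 6.18 and 8.08. In replicate 3 it was 2 separate peaks, 9.811 to 10.196 kb (8.08) and 10.901 to 11.13 kb (5.31) downstream of the first TSS. The second of these ended before the intronic H3K4me1 peak of replicate 3, at 11.219 to 11.439 kb. The bases common to the H3K4me1 peaks of all 3 libraries in the intronic region are shown because no other place in the chromosome 17 cluster recurred so strongly away from a TSS, and they held no match to the X1, X2 or Y letters.
H2-Ob intronic region, chr17:34250122-34250320, plus strand, GRCm38: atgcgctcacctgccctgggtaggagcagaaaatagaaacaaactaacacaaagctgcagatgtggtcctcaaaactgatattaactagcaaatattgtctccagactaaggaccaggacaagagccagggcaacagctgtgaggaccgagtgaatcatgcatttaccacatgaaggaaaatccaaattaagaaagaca
In windows of 300 bp around H3K4me1 summits on chromosomes 16 and 17, X1 letters were found in 3.36% of 119 windows assigned to the class II genes and in 3.51% of all 4239, and Y letters in 31.1% and 32.3%.

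Cd74 (chr18:60803848-60812652, plus strand) had the plainest profile. Its H3K4me3 peak over the TSSs was 4181, 3626 and 3507 bp wide with fold enrichments of 7.2, 6.51 and 6.42, and the promoter coverage of 4181, 3889 and 3507 bp had the smallest SD of the 10 genes (338 bp). No H3K4me1 peak lay within 5 kb of its TSSs or in the gene beyond in any library. The nearest H3K4me1 region called in more than 1 library (60792248-60792567, replicates 2 and 3) lay 11.3 kb upstream, inside an H3K4me3 region (60791558-60795613) that was called in 3 of 3 libraries with fold enrichments of 6.56, 6.2 and 5.92. The region with H3K4me1 in 3 of 3 libraries nearest to Cd74 was 28 kb away, in an intron of Rps14 and 371 bp from its TSS.

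Ciita (chr16:10480059-10528418, plus strand) is known to start from alternative promoters, among them a first one used in dendritic cells and a more downstream one used in B cells. The annotation gives 5 protein-coding TSSs, of which the first lie at 10480059 and 10480164, the next 8.22 kb downstream at 10488279 and the last at 10489781 and 10489783. H3K4me3 covered the 3 downstream TSSs in 3 of 3 libraries, in a peak of 5693, 12708 and 6170 bp with fold enrichments of 8.06, 6.2 and 7.02. The 2 upstream TSSs lay in no peak of either mark in any library, and the nearest H3K4me3 peak ended 3667, 3669 and 3258 bp before the first of them. Which Ciita promoter is used was not measured.
H3K4me1 at Ciita was called at 1 promoter position in 3 of 3 libraries (10486945-10487334), 945 bp upstream of the TSS at 10488279, with fold enrichments of 5.61, 6.75 and 3.65. It was also called in 3 of 3 libraries 18.5 kb downstream of the last TSS, in a region that overlaps an exon (10508306-10509049), with 4.91, 4.5 and 4.39. Ciita had the highest H3K4me1 share of its window among the 10 genes (5.4% ± 3.76), but the coverage of 1603, 1373 and 220 bp set replicate 3 far below the other libraries.

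**Figure D3:**
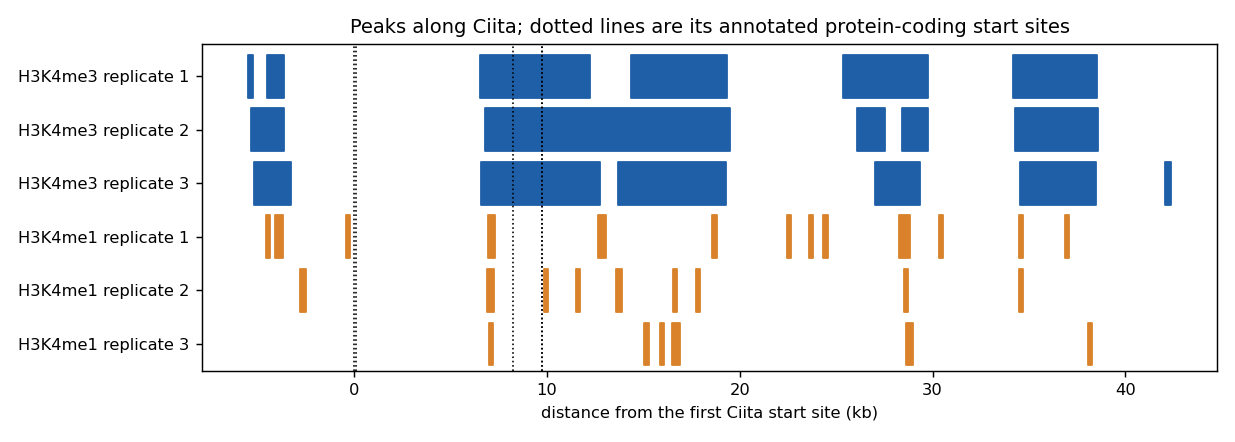
Peaks of the 6 libraries along Ciita (x axis, kb from its first TSS, H3K4me3 in blue and H3K4me1 in orange), with dotted lines at the 5 protein-coding TSSs, which appear as 3 positions. Blue peaks cover the positions near 8.22 and 9.72 kb in 3 of 3 libraries and leave the first position, at 0 kb, uncovered.

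The 8 genes on chromosome 17 form a cluster, taken from 5 kb before the first to 5 kb after the last (chr17:34087340-34321674, 234 kb). It held 32, 34 and 36 H3K4me3 peaks, which covered 36.1, 30.5 and 30.2% of it, against 2.93, 2.38 and 2.48% of the whole chromosome. H3K4me1 peaks numbered 34, 18 and 18 and covered 4.6, 2.11 and 2.01%, against 0.352, 0.184 and 0.165% of the chromosome. The number of peaks thus overlapped between the marks (34 ± 2 and 23.3 ± 9.24, SD, n = 3 each), whereas the covered share did not (32.3% ± 3.32 and 2.91% ± 1.47). The cluster is dense in genes, and also contains Brd2, Psmb9, Tap1, Psmb8 and Tap2. From the end of Tap2 to 5 kb before H2-Ob, a single H3K4me3 peak was called, in 1 library, and no H3K4me1 peak.

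**Figure D4:**
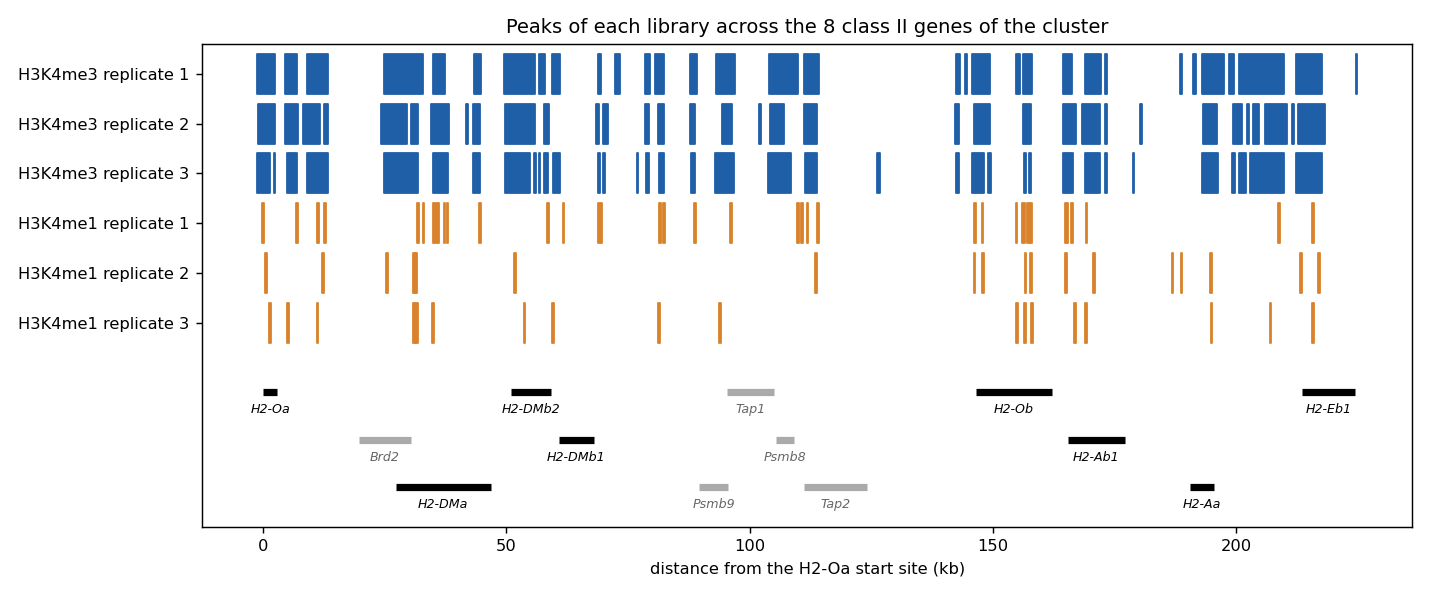
Peaks of the 6 libraries (rows) across the cluster on chromosome 17, with distance from the H2-Oa TSS in kb on the x axis, class II genes in black and other protein-coding genes in grey. Narrow peaks are drawn at least 0.35 kb wide. H3K4me3 blocks cover 30.2% to 36.1% of the interval and H3K4me1 peaks 2.01% to 4.6%.

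With every peak assigned once, to the nearest class II TSS, 63, 62 and 66 H3K4me3 peaks and 63, 35 and 32 H3K4me1 peaks lay within 50 kb of the 10 genes. Promoter peaks made up 23, 23 and 25 of the H3K4me3 peaks and 18, 15 and 12 of the H3K4me1 peaks. Peaks in the genes beyond 5 kb numbered 4, 4 and 5 for H3K4me3 and 16, 6 and 8 for H3K4me1. Such a peak was present in 3 of 3 libraries for H2-Ob and Ciita only, 2 of 10 genes for each mark, against 19.3% of all genes for H3K4me3 and 6.64% for H3K4me1. The remaining 36, 35 and 36 H3K4me3 peaks and 29, 14 and 12 H3K4me1 peaks were outlying, 5 to 50 kb from the TSSs and outside the gene they were assigned to. Only 9, 14 and 11 of these H3K4me3 peaks and 6, 5 and 5 of the H3K4me1 peaks had a class II TSS as the nearest protein-coding TSS. So assigned, outlying H3K4me3 was present in 3 of 3 libraries for 7 of 10 genes and outlying H3K4me1 for 3 of 10 (H2-Eb1, H2-Oa and Cd74). For the share over all genes, each peak was instead given to every gene in reach. Counted in that way, outlying H3K4me3 was present in 3 of 3 libraries for 10 of 10 genes, against 60.3% of all genes, and outlying H3K4me1 for 9 of 10, all but Ciita, against 20.4%. The cluster genes share these peaks, so the latter counts are not separate observations.

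The H3K4me1 peaks lay mostly beside and within H3K4me3. Of those assigned to the 10 genes, 73% to 93.8% overlapped an H3K4me3 peak by at least 1 bp over the 9 pairs of libraries, and 68.3% to 78.2% of all H3K4me1 peaks did so. Of the 45 H3K4me1 promoter peaks in the 3 libraries together, 26 had their summit downstream and 19 upstream of the nearest TSS, with a median gap of 1094 bp between peak edge and TSS. Positions recurred poorly. When peaks were merged across libraries, 7 of 101 H3K4me1 regions (6.93%) were seen in 3 of 3 libraries and 79 in only 1, and the share in all libraries was 4.69% over the genome. For H3K4me3, 40 of 80 regions (50%) were seen in 3 of 3, against 41.6%. The fold enrichment and p-value of each H3K4me1 peak could be rewritten as a whole number of fragments at the summit under a Poisson model (within 0.01 on the −log10 p-value scale, for 100% of peaks). Peaks near the class II genes rested on 4 to 14 such fragments, with a median of 6 in each library. At this depth the absence of an H3K4me1 peak means that none was detectable.

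Promoter peaks in 3 of 3 libraries were counted for genes that work with class II, to be read against 56.2% of all genes for H3K4me3 and 6.17% for H3K4me1. Of 7 regulators that bind class II promoters (the RFX subunits Rfx5, Rfxap and Rfxank, the NF-Y subunits Nfya, Nfyb and Nfyc, and Creb1), 7 had an H3K4me3 promoter peak in 3 of 3 libraries and 3 (Rfx5, Nfya and Creb1) an H3K4me1 peak. Of 6 antigen-processing genes (Ctss, Ctsb, Ctsd, Ctsl, Lgmn and Ifi30), the counts were 6 and 1, the latter being Ifi30, the lysosomal thiol reductase. March1, a ubiquitin ligase that removes class II from the surface, was the only turnover gene of 3 with H3K4me1 in 3 of 3 libraries (1233, 1568 and 1305 bp), while March8 had none. Of 6 class I presentation genes, 6 and 0 were positive. Of 10 genes lying among or beside the cluster, 4 of which are also in the class I list, 10 and 4 (Brd2, H2-Eb2, Btnl1 and Btnl2) were positive, and of 6 GC B cell markers 6 and 5. The median of mean H3K4me3 coverage was 3456 bp in the regulators, 3221 bp in antigen processing, 5332 bp in turnover, 4494 bp in class I and 3735 bp in the neighbours, set against 4596 bp in the class II genes. These list medians are in bp and were not corrected for window length, which differs between genes, so they do not rank the lists. Among the protein-coding genes outside the class II loci whose coverage in the 6 libraries lay nearest to the median of the class II genes were Xrcc6, Slc43a1, Knl1 and Phf23, with Euclidean distances of 0.318 to 0.481 on the log2(bp + 100) scale. H2-Ab1 (0.879) and H2-Oa (0.978) were the class II genes nearest to that median, and Cd74 (3.73) the farthest.

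**Figure D5:**
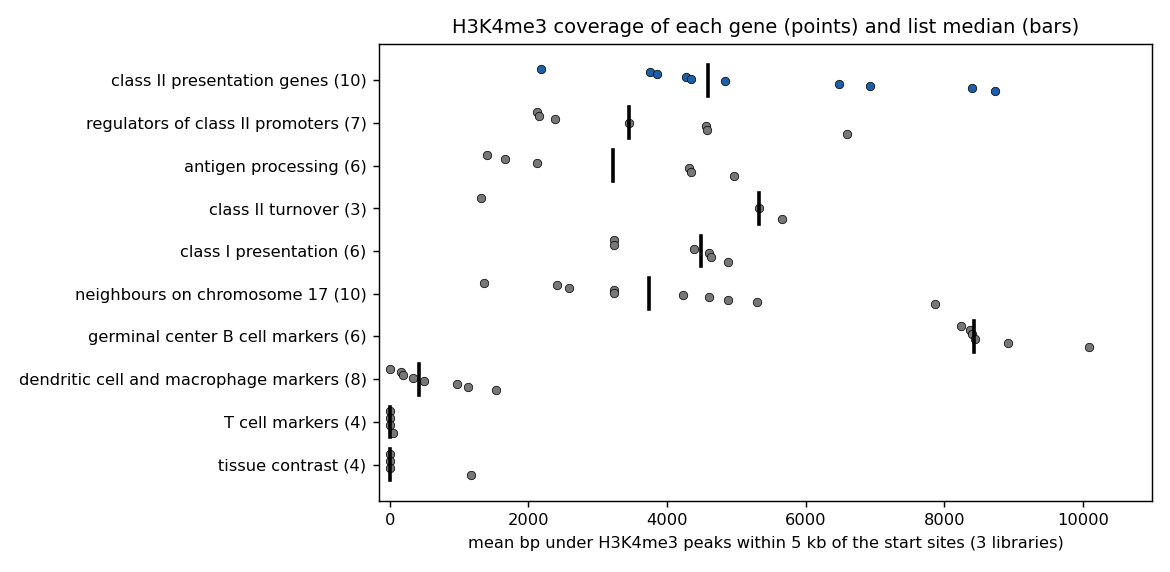
Mean H3K4me3 coverage within 5 kb of the TSSs (x axis, bp, 3 libraries) of each class II gene (blue points) and each gene of the other lists (grey points), with a black bar at the list median and the number of genes in brackets. The class II median is 4596 bp, that of the GC B cell markers 8423 bp and that of the dendritic cell and macrophage markers 417 bp. Coverage was not corrected for window length, which differs between genes.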

How the data were processed

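Per the labels, the submitters' processing notes name BWA, Picard, HOMER and Genrich and the build mm10, without roles or versions, and the caller's settings and control are not given in the sources used here. Peaks were called by the authors library by library, without pooling. The deposited peak lists (broad layout for H3K4me3, narrow layout with a summit offset for H3K4me1) give for each peak a fold enrichment, a linear ratio to local background, and its significance as −log10 p-value and as −log10 q-value, from the authors' caller. The deposited score column was not used. The deposited summit offset, another value in bp, was added to the peak start.

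Peaks were read as GRCm38, 1-based, and placed by distance to protein-coding TSSs of GENCODE M21: promoter (within 5 kb), gene (beyond 5 kb, in the gene) and outlying (5 to 50 kb). Coverage is the union of peaks in bp. Marks were compared by a two-sided exact permutation test over 20 assignments, per gene over all 21864 protein-coding genes, with Benjamini-Hochberg adjustment. Scripts (Python 3.11.15, numpy 2.4.6, pandas 2.3.3) were tested on simulated data. All 10 genes were named in full, and further lists by counts and exceptions. The genes and lists were chosen with earlier results of these data known. Some genes of these lists and comparisons are not reported here, and list counts and medians are over those reported. Alternatives were stricter or ranked peaks, merged peaks, other distances and TSSs, other assignment rules, left-out libraries and paired replicate numbers.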

Additional observations from a re-analysis of the deposited data

How the results depend on the processing

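H3K4me3 at the promoters of the 10 genes kept its count of genes positive in every library within 1.5 times under all alternatives (7 to 10), while H3K4me1 depended on threshold and distance. With peaks of −log10 q of at least 5, H3K4me1 was positive in every library for 1 gene, H2-DMa (0.503% of all genes), and H3K4me3 for 10 (34.9%). H2-DMb1 was among these 10 only through peaks assigned to H2-DMb2 that lay within 5 kb of its TSS. The H3K4me3 peaks assigned to H2-DMb1 itself had a −log10 q of at most 3.25. H3K4me1 was positive for 0 genes at a promoter distance of 1 kb and for 0 with the TSS covered. With the 10000 peaks of highest −log10 q, H2-Ab1, H2-DMb1 and H2-DMb2 lost H3K4me3 in at least 1 library. The cluster mean of 34 H3K4me3 peaks became 17.7 at −log10 q of at least 5 and 14 with the top 10000, and that of 23.3 H3K4me1 peaks became 8 at −log10 q of at least 5. Outlying H3K4me3 peaks (mean 35.7) became 13, 9.33, 112 (counted for every gene in reach) and 11.3 (nearest TSS of any gene), and H3K4me1 peaks (18.3) 5.33, 11.7, 72.3 and 5.33 under the same 4 alternatives. These alternatives keep fewer peaks or count peaks repeatedly by construction.

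The number of genes with every H3K4me3 library above every H3K4me1 library fell from 10 to 8 at −log10 q of at least 5 (H2-Ab1 and H2-DMb1 overlapped), to 7 with the top 10000 (also H2-DMb2, p = 0.4, exact permutation test) and to 9 at promoter distances of 1 and 2.5 kb. Of 130 recomputed differences in coverage between the marks, 127 kept H3K4me3 higher. The difference turned to -23 bp for H2-DMb1 at −log10 q of at least 5 (p = 1, exact permutation test), and with the top 10000 to -102 bp for H2-DMb1 (p = 0.4) and -207 bp for H2-Ab1 (p = 0.3), and the cause was not tested. With a library left out, the count of genes with H3K4me1 in every remaining library ranged from 5 to 7, the cluster means from 33 to 35 and from 18 to 26, and the outlying means from 35.5 to 36 and from 13 to 21.5, the lowest H3K4me1 means being without replicate 1. The number of Ciita TSSs under H3K4me3 was 3 in each alternative run for it, whereas with only the 5′-most TSS, which no peak covers, the difference in coverage at Ciita was 935 bp in place of 7329 bp.

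Replicate numbers are shared between the marks, but deviations of same-numbered libraries did not correlate (-0.017, -0.004 and 0.003 over 14451 genes). With H3K4me1 peaks resting on so few fragments, this check cannot decide whether the numbers pair the libraries. With a replicate block, 10 of 10 genes had higher H3K4me3 coverage in each pair, with an exact sign-flip p of 0.25, the smallest possible, and the mean differences in cluster and outlying peaks were 10.7 and 17.3 peaks (p = 0.5 and 0.25, exact).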
